A study of Mus musculus with 18 samples.

Results

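The RNA of 10 genes of the extracellular matrix and of osteoclast control was followed in mice that carry the TRbK146Q mutation, in which glutamine replaces the lysine at a sumoylation site of thyroid hormone receptor beta (THRB). The genes are Comp, Thbs1, Thbs2, Thbs4, Edil3, Mfge8, Spp1, Acan, Tnfsf11 and Tnfrsf11b, 10 of the 24054 genes listed for each tissue. They were selected by gene symbol with the genotype differences of these same libraries already known, so those differences are given below as a description. Where calls of the members by genotype are given, they show how the fit behaves and are not read as evidence of a difference. Thyroid, pituitary and hypothalamus were taken from 3 WT and 3 K146Q male mice of the C57BL/Ntac strain at 3 months of age, without treatment, snap frozen, and sequenced as 18 libraries. The mutation is a germline knock-in, present in every tissue and in all isoforms of the receptor, and both genotypes were on the same strain. The same 6 mouse numbers recur in the 3 tissues, 1, 2 and 43 for WT and 60, 62 and 83 for K146Q, and values are always given in this order. The tables count whole genes and cannot show the changed codon, so the genotype labels were not checked against it.

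Matricellular proteins are secreted into the matrix, where they change how cells attach and signal rather than bear load. The thrombospondins are the best known family, and COMP is its cartilage member. Edil3 and Mfge8 encode related secreted proteins that bridge integrins and phospholipids on dying cells or vesicles, and Spp1 encodes osteopontin, a phosphoprotein that binds integrins and CD44. Aggrecan, the product of Acan, is a structural proteoglycan of cartilage and not a matricellular protein. Tnfsf11 encodes RANKL, which drives osteoclast precursors to mature through the receptor RANK, and Tnfrsf11b encodes osteoprotegerin, the soluble decoy that captures RANKL. In the thyroid axis, hypothalamic TRH drives pituitary TSH, TSH drives the thyroid follicle, and thyroid hormone acting through THRB lowers TRH and TSH.

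The genes lie on 8 chromosomes of GRCm38 in the GENCODE M21 annotation. Comp is at chr8:70373558-70382066 on the plus strand and Tnfsf11 at chr14:78277445-78308043 on the minus strand. Thbs4 at chr13:92751590-92794818 and Edil3 at chr13:88821472-89323223 share a chromosome, as do Mfge8 at chr7:79133768-79149060 and Acan at chr7:79053483-79115099. Thbs1 is at chr2:118111876-118127133, Thbs2 at chr17:14665500-14694235, Spp1 at chr5:104435118-104441050 and Tnfrsf11b at chr15:54250619-54278484. Exon bases are shared by Thbs1 with an antisense lincRNA, Gm29233, over 187 bases, and by Spp1 with Gm42793 over 309 bases of the same strand, so reads of these stretches may be split or joined by the counting.

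RefSeq promoter windows (GRCm38.p6) were found for 6 of the 10 genes, 7 windows in all, with none used here for Comp, Thbs1, Edil3 and Tnfrsf11b. The 250 bases before the listed start are shown for the 3 genes with a window that stood higher in the K146Q thyroid, Tnfsf11 on the minus strand at chr14:78308044-78308293, Thbs2 on the minus strand at chr17:14694263-14694512 and Thbs4 on the minus strand at chr13:92794819-92795068. They are written 5′ to 3′ along the gene, and capitals mark a match to the letters TATAAA, the TATA box motif, on either strand.
Tnfsf11: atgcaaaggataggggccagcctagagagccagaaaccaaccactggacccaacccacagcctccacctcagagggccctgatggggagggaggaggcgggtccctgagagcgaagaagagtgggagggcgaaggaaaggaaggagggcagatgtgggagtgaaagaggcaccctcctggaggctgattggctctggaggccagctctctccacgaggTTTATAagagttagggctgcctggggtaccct
Thbs2: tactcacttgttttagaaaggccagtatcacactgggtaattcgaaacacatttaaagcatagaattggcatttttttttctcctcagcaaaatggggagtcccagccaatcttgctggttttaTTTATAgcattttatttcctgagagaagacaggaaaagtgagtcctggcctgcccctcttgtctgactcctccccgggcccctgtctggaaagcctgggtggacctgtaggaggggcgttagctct
Thbs4: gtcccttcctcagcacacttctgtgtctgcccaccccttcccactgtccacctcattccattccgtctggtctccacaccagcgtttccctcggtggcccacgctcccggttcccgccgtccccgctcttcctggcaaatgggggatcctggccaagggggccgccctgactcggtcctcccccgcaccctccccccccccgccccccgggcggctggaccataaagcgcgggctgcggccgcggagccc
The capitals begin at position -32 in Tnfsf11 and at position -126 in Thbs2, both as the reverse complement TTTATA, and are missing from the Thbs4 window. Each whole window of 300 bases, 250 before and 50 after the start, was searched on both strands for 4 motifs. TATAAA was in 3 of the 7 windows, those of Tnfsf11, Thbs2 and the first of the pair for Spp1 (position -211), against 13.6% of all 32851 mouse promoter windows. The full cyclic AMP response element TGACGTCA was in 0 of the 7 (1.79% of all), its half-site TGACG, which lies within it, in 0 (20.8%), and the nuclear receptor half-site AGGTCA in 0 (16.3%). A match, or the lack of one, says only whether these letters are in the window, and a match was not shown to be a working element.

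Before the results, the libraries were checked against their tissue labels. They held 14902330 to 21230050 reads. The levels are CPM, the deposited normalised read count scaled to a library total that the authors multiplied by a normalisation factor. The summed level of 8 pituitary markers was 133729 to 257090.3 CPM in WT and 110072 to 119939 CPM in K146Q pituitaries, and that of 12 neural markers was 6663 to 7334 and 6819.8 to 7549.6 CPM in the hypothalami. In the thyroids 7 follicle markers, thyroglobulin (Tg) above all, summed to 299623 to 361343 CPM in WT and 90316 to 137747 CPM in K146Q. Markers of other tissues were detected in the thyroid samples too. The thyroid of WT mouse 1 carried 601 CPM of pituitary markers against 101 to 174 CPM in the other 5, and skeletal muscle markers ran from 399 to 7402 CPM without a split by genotype.

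In the thyroid, 6 of the 10 genes stood higher in K146Q than in WT mice: Comp, Thbs4, Thbs2, Edil3, Tnfsf11 and Tnfrsf11b. Thbs1, Mfge8 and Spp1, which WT thyroids already carried at a high level, overlapped between the genotypes, and Acan was close to absent in both. Each of the 6 had every K146Q library above every WT library. These are levels in whole tissue, where more cells of a type and more RNA per cell cannot be told apart.

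Among the thrombospondins, Comp was 1.39, 0.886 and 0.902 CPM in the WT thyroids and 52.5, 77.5 and 51.2 CPM in the K146Q thyroids. Thbs4, which encodes a thrombospondin of tendon and muscle, was 5.24, 4.81 and 15.4 CPM in WT and 98, 150.3 and 138 CPM in K146Q thyroids. Thbs2, an inhibitor of angiogenesis, was 11.8, 8.16 and 12.2 CPM in WT and 20.6, 35.8 and 29.1 CPM in K146Q thyroids. The K146Q thyroid of mouse 62 was the highest for all 3 genes, and for Thbs4 the WT thyroid of mouse 43 stood above the other WT thyroids. The ratio of the means was 57 for Comp, from 1.06 ± 0.286 to 60.4 ± 14.8 CPM (SD, n = 3), 15.2 for Thbs4, from 8.48 ± 5.99 to 129 ± 27.4 CPM (SD, n = 3), and 2.66 for Thbs2, from 10.7 ± 2.23 to 28.5 ± 7.66 CPM (SD, n = 3). On the scale of the fit, log2(CPM + 0.5), which understates the change of low genes, the differences were 5.28 (SE 0.21), 4.02 (SE 0.40) and 1.36 (SE 0.23). Thbs1, the activator of latent TGF-beta and the most abundant thrombospondin per kilobase of exon in the WT thyroid, was 356, 299.8 and 217 CPM in WT and 249, 301 and 388 CPM in K146Q thyroids, a log2 difference of 0.11 (SE 0.22), and the groups overlapped.

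**Figure D1:**
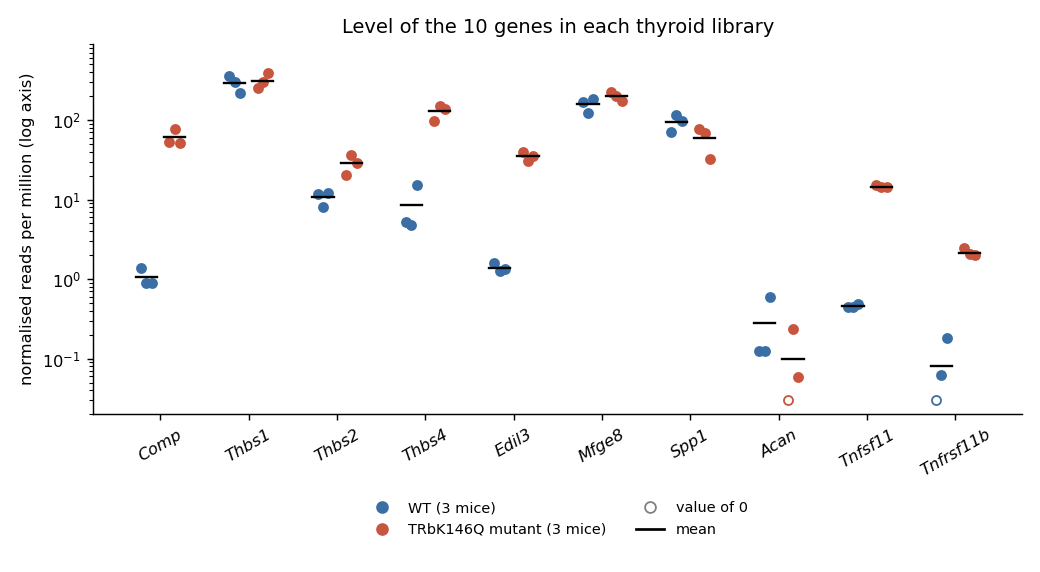
Normalised read count (CPM, log axis) of the 10 genes in each of the 3 WT (blue) and 3 K146Q (red) thyroid libraries, with a bar at each mean and open points for values of 0. Comp, Thbs2, Thbs4, Edil3, Tnfsf11 and Tnfrsf11b show no overlap between the genotypes, and Thbs1, Mfge8, Spp1 and Acan overlap.

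The related pair Edil3 and Mfge8 went separate ways. Edil3, whose product binds integrins on endothelium and restrains leukocyte entry, was 1.58, 1.27 and 1.32 CPM in WT and 39.3, 30.3 and 34.8 CPM in K146Q thyroids, a ratio of 25 and a log2 difference of 4.22 (SE 0.15). Mfge8, which tags dying cells for engulfment, was 170.4, 123 and 184 CPM in WT and 221, 201 and 174 CPM in K146Q thyroids, a log2 difference of 0.33 (SE 0.16). For Mfge8 the K146Q thyroids of mice 60 and 62 lay above the highest WT value and that of mouse 83 did not. Per kilobase of exon, Mfge8 was nonetheless the most abundant of the 10 genes in both genotypes, at 74.8 CPM per kilobase in WT and 93.4 in K146Q, whereas Edil3 moved from 0.216 to 5.41.

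Spp1 was the 1 abundant gene of the set with a lower mean in the mutant. It was 70.3, 115 and 95.7 CPM in WT and 75.9, 67.8 and 32.7 CPM in K146Q thyroids, a log2 difference of -0.73 (SE 0.32). The groups overlapped through the WT thyroid of mouse 1 and the K146Q thyroid of mouse 60, and the K146Q thyroid of mouse 83 lay well below all others. Acan was 0.126, 0.127 and 0.601 CPM in WT and 0, 0.235 and 0.0586 CPM in K146Q thyroids, at most 10 reads in any library, and did not pass the filter of 0.5 CPM in at least 3 libraries.

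The osteoclast factors were almost silent in WT thyroids. Tnfsf11 (RANKL) was 0.442, 0.443 and 0.481 CPM in WT, or 7, 7 and 8 reads, and 15, 14.2 and 14.4 CPM in K146Q thyroids, or 303, 242 and 246 reads. It had the narrowest spread of the 6 genes relative to its mean in both genotypes, with a ratio of the means of 32 and a log2 difference of 3.98 (SE 0.14). Tnfrsf11b, the decoy of RANKL, was 0, 1 and 3 reads in WT and 49, 35 and 34 reads in K146Q thyroids, or 2.43, 2.06 and 1.99 CPM. With 4 reads in all WT thyroids and 118 in all K146Q thyroids, the ratio of normalised reads was 26.2, with an exact 95% interval of 9.98 to 97.9 that covers counting error only. The ligand and its decoy were both detected in every K146Q thyroid, the ligand at 6.51 and the decoy at 0.766 CPM per kilobase of exon.

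Across all 15200 genes tested in the thyroid by limma with Benjamini-Hochberg adjustment, 19.7% passed an adjusted p of 0.05 as higher in K146Q and 18.1% as lower. The groups did not overlap with K146Q above for 26.6% of genes and with K146Q below for 25.7%. Of the 9 members tested, 6 passed as higher and 0 as lower, and the same 6 did not overlap. Because the members were selected on this contrast, nothing is read from that count. The median log2 difference was 2.20 for the 9 and -0.03 over all genes. That gap rests on the same selection, and nothing is read from it either. Tnfsf11 and Tnfrsf11b met the filter through the K146Q thyroids, where they were high, and missed it without any 1 of these. Over all genes 5739 passed in either direction, and 3602 without the K146Q thyroid of mouse 62. With library totals taken without the 10 highest genes, the median of all genes moved to -0.12 and the split from 2992 higher and 2747 lower to 2502 higher and 3629 lower, and the log2 differences of the 6 members stayed positive.

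The pituitary showed another set. Edil3 was 120.4, 79.2 and 103 CPM in WT and 37, 46 and 60.7 CPM in K146Q pituitaries, so that the mutant held less, with a log2 difference of -1.07 (SE 0.19). Acan was 1.2, 0.858 and 0.911 CPM in WT and 0.206, 0.408 and 0.401 CPM in K146Q pituitaries, a log2 difference of -0.83 (SE 0.21) at 4 to 27 reads per library. Mfge8 and Spp1 were higher in the mutant. Mfge8 was 91.5, 109 and 138 CPM in WT and 214, 172 and 152 CPM in K146Q pituitaries, a log2 difference of 0.67 (SE 0.16), and Spp1 was 82.3, 113 and 97.2 CPM in WT and 134, 134 and 120.4 CPM in K146Q pituitaries, a log2 difference of 0.42 (SE 0.11). None of these 4 genes overlapped between the genotypes.

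Comp, Thbs4 and Tnfsf11, all far higher in the mutant thyroid, were low in the pituitary of both genotypes. Comp was 0.445, 0.629 and 0.171 CPM in WT and 0.31, 0.204 and 0.251 CPM in K146Q pituitaries, and did not pass the filter. Thbs4 was 0.267, 0.229 and 0.456 CPM in WT and 0.258, 0.153 and 0.0502 CPM in K146Q pituitaries and did not pass it either. Tnfsf11 was 0.311, 0.515 and 0.57 CPM in WT and 0.516, 0.153 and 0.451 CPM in K146Q pituitaries. Tnfrsf11b, by contrast, was detected in every pituitary, at 1.78, 2.17 and 2.11 CPM in WT and 2.12, 0.97 and 1.45 CPM in K146Q, a log2 difference of -0.36 (SE 0.23). Thbs1 and Thbs2 had log2 differences of 0.16 (SE 0.12) and 0.51 (SE 0.20), with overlap. Of 15589 genes tested in the pituitary, 6.36% passed as higher and 3.50% as lower, and 16.7% did not overlap with K146Q above and 14.3% with K146Q below. Of the 8 members tested, 2 passed as higher and 2 as lower, again a count on which the members were selected. Some of these calls were lost when 1 library was left out. Mfge8 passed in 2 of 6 such fits, without WT mouse 43 or K146Q mouse 83, Spp1 in 1, without WT mouse 2, and Acan in 0, since it missed the filter without any WT library and the threshold without any K146Q library. Their log2 differences over these fits ran from 0.53 to 0.83, from 0.30 to 0.53 and from -0.89 to -0.71. The value of Acan, a low gene, moved more with the scale of the fit, from -0.57 with a pseudocount of 1 to -1.34 with 0.1 and -1.55 by DESeq2, which did not call it. Over all genes 1537 passed, and 625 without K146Q mouse 60 and 752 without K146Q mouse 62. Without the 10 highest genes in the totals the split over all genes moved from 991 higher and 546 lower to 841 higher and 885 lower, and Spp1 no longer passed.

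In the hypothalamus the genotypes lay close together. No gene of 15761 passed (0%) by limma, with 645 at an unadjusted p under 0.05, while edgeR called 0 and DESeq2 9. Leaving out 1 library gave at most 6 calls, without K146Q mouse 83. In this tissue 9.15% of the genes did not overlap in either direction. Edil3 was 176, 191 and 176 CPM in WT and 194, 206 and 192 CPM in K146Q hypothalami, without overlap but with a log2 difference of only 0.12 (SE 0.05). Comp did not overlap either, at 1, 5 and 4 reads in WT and 7, 11 and 6 reads in K146Q, below the filter. The remaining 8 genes overlapped, with log2 differences from -0.17 for Acan to 0.36 for Spp1 among those tested. Tnfsf11 had at most 3 reads in any hypothalamus, which is the floor used here for a value of 0.

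**Figure D2:**
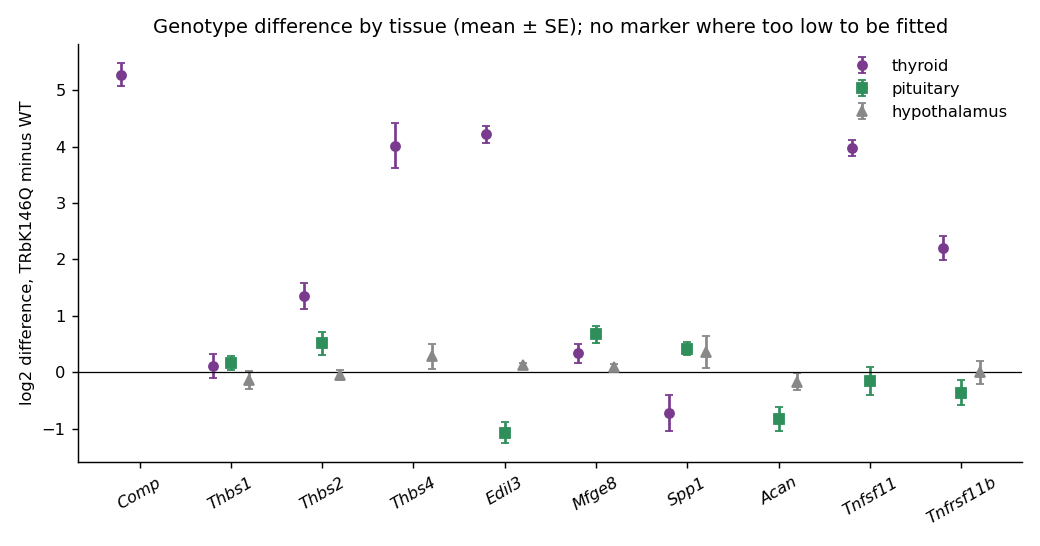
Log2 difference of K146Q minus WT, on log2(CPM + 0.5), with its standard error, for the 10 genes in thyroid (circles), pituitary (squares) and hypothalamus (triangles), 3 mice per genotype, with no marker where a gene was too low to be fitted. Comp reaches 5.28 in the thyroid, Edil3 is at 4.22 in the thyroid and -1.07 in the pituitary, and the hypothalamus values lie near 0.

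Levels in the WT tissues were compared in 1 fit of all 18 libraries by limma, adjusted over 17140 genes, of which 75.6% differed between pituitary and thyroid, 81.9% between hypothalamus and thyroid and 73.0% between pituitary and hypothalamus. The WT libraries of all 3 tissues also entered the genotype differences known when the genes were selected, so none of these tests is independent of the choice. Of the 10 genes, 7, 9 and 7 differed in the 3 comparisons, close to the shares over all genes. With mouse number as a replicate block, the counts were again 7, 9 and 7.

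Edil3 was the gene with the steepest order in WT tissues, at 181 ± 8.43 CPM in hypothalamus, 101 ± 20.7 CPM in pituitary and 1.39 ± 0.167 CPM in thyroid (SD, n = 3). All 3 steps passed, with log2 differences of 5.73 (SE 0.16, adjusted p = 2.4e-15 by limma) from thyroid to pituitary and -0.86 (SE 0.16, adjusted p = 8.3e-05 by limma) for pituitary minus hypothalamus. In the mutant the Edil3 levels of thyroid, 34.8 ± 4.49 CPM, and pituitary, 47.9 ± 12 CPM, overlapped, and their difference was not tested. Acan followed the same order at lower levels, 6.38 ± 0.842, 0.99 ± 0.185 and 0.285 ± 0.274 CPM, and Tnfrsf11b was at 2.02 ± 0.211 CPM in pituitary, 1.38 ± 0.0985 CPM in hypothalamus and 0.0812 ± 0.0915 CPM in thyroid. For Tnfrsf11b every WT pituitary lay above every WT hypothalamus, but the difference missed the threshold (adjusted p = 0.077 by limma). It passed without the 10 highest genes in the totals (log2 0.66) and by quantile normalization (0.54). Thyroid lay below both tissues.

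Thbs1, Thbs4 and Comp were highest in the thyroid in WT mice. Thbs1 was 291 ± 69.7 CPM in thyroid, 19.6 ± 1.19 CPM in pituitary and 6.37 ± 1.28 CPM in hypothalamus (SD, n = 3), and Thbs4 was 8.48 ± 5.99 CPM in thyroid, 1.36 ± 0.35 CPM in hypothalamus and 0.317 ± 0.121 CPM in pituitary. Each neighbouring step passed for both genes, the smallest being -1.18 (SE 0.32, adjusted p = 0.0034 by limma) for Thbs4 in pituitary minus hypothalamus. The Comp pituitary and hypothalamus levels did not differ beyond their spread (adjusted p = 0.12 by limma), though they did without the 10 highest genes in the totals (log2 0.55) and without mouse 43 (0.64). Thbs2 was 10.7 ± 2.23, 9.5 ± 1.63 and 11.9 ± 1.02 CPM in thyroid, pituitary and hypothalamus (SD, n = 3), and none of its 3 comparisons passed (adjusted p from 0.17 to 0.5 by limma). Spp1 did not differ between pituitary and thyroid beyond its spread (log2 difference 0.07, SE 0.30, adjusted p = 0.84 by limma) and far lower in hypothalamus, at 6.39 ± 2.05 CPM. Mfge8 fell from 159 ± 32.1 CPM in thyroid to 113 ± 23.6 CPM in pituitary and 75.5 ± 3.61 CPM in hypothalamus, with each step past the threshold. The step from thyroid to pituitary, -0.49 (SE 0.16), was -0.29 without mouse 1, and that from hypothalamus to pituitary, 0.56 (SE 0.16), was 0.38 without mouse 43, and neither then passed. Tnfsf11 did not differ between WT thyroid and pituitary beyond its spread (log2 difference 0.01, SE 0.18), at 7 to 10 reads per library.

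**Figure D3:**
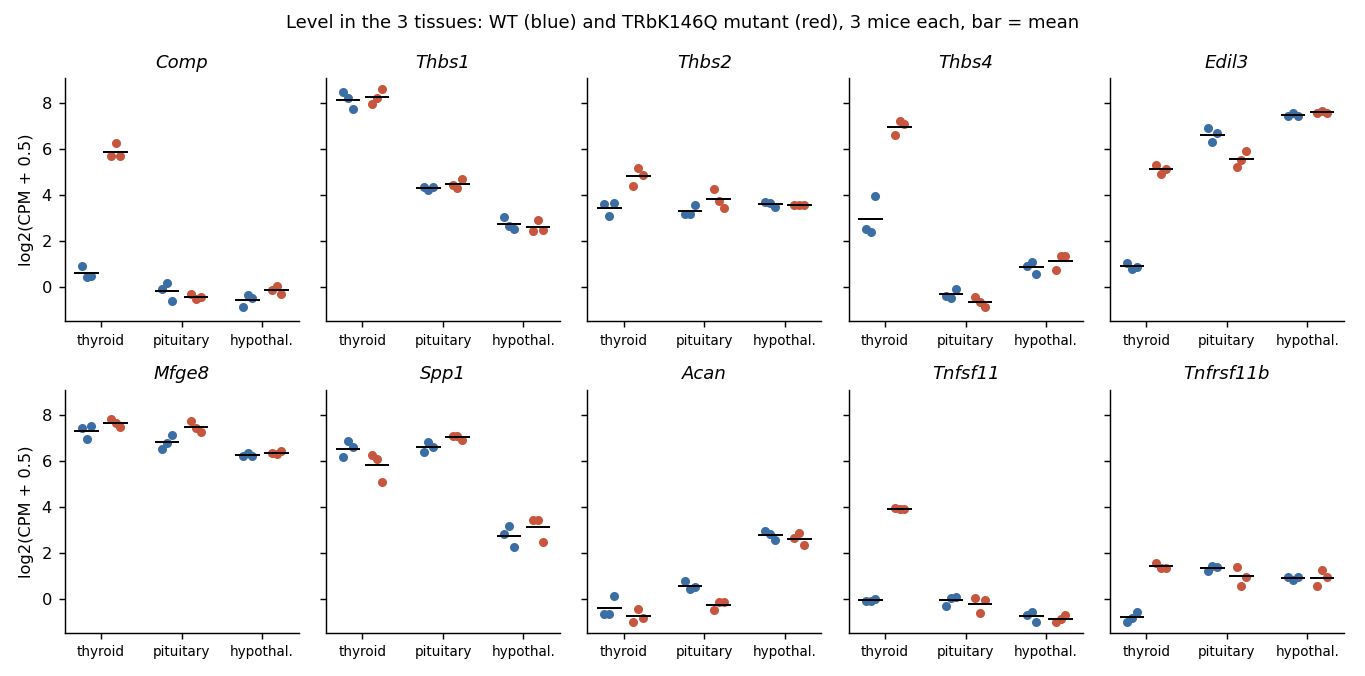
Level of each gene, as log2(CPM + 0.5), in thyroid, pituitary and hypothalamus of 3 WT (blue) and 3 K146Q (red) mice, with 1 point per library and a bar at the mean. The K146Q thyroid lies above every other group for Comp, Thbs4 and Tnfsf11, it overlaps the K146Q pituitary for Edil3 and Tnfrsf11b, and Edil3 is the gene whose WT thyroid lies farthest below the other tissues.

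The genes nearest in pattern were found by the root-mean-square difference of centred log2(CPM + 0.5) over the 18 libraries, among 17130 genes. For Comp they were Fgg, the fibrinogen gamma chain (0.43 log2 units), Dcpp2 (0.47) and Crygs, a lens crystallin (0.47). Fgg went from 0.143 ± 0.0899 CPM in WT to 49.4 ± 16.2 CPM in K146Q thyroids (SD, n = 3). For Tnfsf11 they were Il24, a cytokine (0.37), S100g, the calcium-binding protein calbindin-D9k (0.40), and C4bp, a complement regulator (0.41). Il24 went from 0.165 ± 0.034 to 7.5 ± 1.43 CPM, S100g from 0.124 ± 0.00355 to 7.49 ± 2.15 CPM and C4bp from 0.0822 ± 0.033 to 8.38 ± 2.49 CPM in the thyroid (SD, n = 3). For Spp1, low in the hypothalamus of both genotypes, they were Fam160a1 (0.38), Copz2 (0.39) and Snhg18 (0.43). The libraries share tissue and genotype, and nothing is read from the likeness.

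Genes that work with the members were counted from 5 lists and tested by limma over all genes of a tissue. The counts were read beside the 19.7% higher and 18.1% lower of all thyroid genes, and the 6.36% and 3.50% of all pituitary genes. Of 19 further matricellular genes, 8 rose in the K146Q thyroid, 7 fell and 4 did not pass, with a median log2 difference of 0.11. Tgfbi, an integrin-binding matrix protein induced by TGF-beta, was 94.1, 44.4 and 93.8 CPM in WT and 1159.6, 1563 and 1094 CPM in K146Q thyroids (log2 4.09, SE 0.29, adjusted p = 1.0e-04). Wisp2 (CCN5), Cyr61 (CCN1) and Ctgf (CCN2), all of the CCN family, rose by log2 4.0 (SE 0.51), 2.64 (SE 0.24) and 2.56 (SE 0.43), while their relative Wisp1 (CCN4) fell (-1.76, SE 0.23). The 7 that fell also held Smoc1, Smoc2, Sparcl1, Spock2, Spock3 and Tnr, so the list split in the thyroid. Tnr and Spock3 missed the filter without any 1 WT thyroid, and Spock2 missed the threshold without K146Q mouse 83. In the pituitary 4 of 17 tested rose and 0 fell, Spock3 (0.94, SE 0.22, adjusted p = 0.026), Tnr (0.80), Sparc (0.55) and Spock2 (0.32). Of these Sparc, a collagen-binding glycoprotein, passed in all 6 fits that left out 1 library, Tnr and Spock3 in 3 and Spock2 in 1. In the hypothalamus 0 of 17 passed, and the most abundant, Sparcl1 and Sparc, had log2 differences of -0.02 and -0.11.

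Receptors for the members' products were next. Of 14, 7 rose in the K146Q thyroid, 2 fell and 5 did not pass. Cd36, a thrombospondin receptor and fatty acid transporter, was 125, 114 and 136 CPM in WT and 34.6, 20.1 and 17.5 CPM in K146Q thyroids (log2 -2.42, SE 0.23, adjusted p = 2.9e-04), and Itga8 fell as well (-0.88), though in just 2 of the 6 fits that left out 1 library. The integrin chains Itgb8 (2.02, SE 0.26), Itga9 (1.17, SE 0.11) and Itgb3 (0.99, SE 0.15) rose. Itgb8 rose in the pituitary too (1.28, SE 0.18, adjusted p = 0.0022), beside Cd44, a receptor of osteopontin and hyaluronan (1.68, SE 0.23), and Itgb6 (0.95), 3 of 14 in all, of which Itgb6 passed in 2 of the 6 fits that left out 1 library. In the hypothalamus 0 of 13 passed, with Lrp1 at -0.01 and Itgb1 at 0.05.

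The osteoclast pathway around RANKL was in part higher in the mutant thyroid, with 6 of 13 tested genes up, 3 down and 4 not past the threshold. Tnfrsf11a, which encodes RANK, was 5.81, 4.56 and 5.23 CPM in WT and 15.6, 17.4 and 25.1 CPM in K146Q thyroids (log2 1.78, SE 0.19, adjusted p = 5.1e-04). Csf1, the macrophage growth factor that osteoclast precursors need, was 33.1, 28.5 and 28.7 CPM in WT and 94.9, 79.7 and 81.4 CPM in K146Q thyroids (log2 1.49, SE 0.10, adjusted p = 8.8e-05). Dcstamp, a fusion protein of osteoclasts, rose from at most 0.241 to at least 0.646 CPM. Csf1r (log2 1.01), also counted below as a macrophage marker, and Tnfsf10 (0.71) rose as well. Against these, Atp6v0d2, a subunit of the osteoclast proton pump also found in other acid-secreting cells, fell (log2 -2.30, SE 0.17), as did Nfatc1 (-0.37), the main transcription factor of osteoclast maturation, and Traf6 (-0.36), the adaptor of RANK. Nfatc1 passed in 3 and Traf6 in 2 of the 6 fits that left out 1 library, and Dcstamp missed the filter without any 1 K146Q thyroid. Of the enzymes of the mature osteoclast, Ctsk (cathepsin K) rose, from 8.84, 6.45 and 5.17 CPM in WT to 13.4, 13.8 and 12.2 CPM in K146Q thyroids (log2 0.93, SE 0.19), while Acp5 and Mmp9 did not pass, at -0.26 and 0.38. In the pituitary 3 of 10 rose, Il34 (2.40, SE 0.21, adjusted p = 2.1e-04), Csf1r (0.97) and Csf1 (0.51), the first and last being the ligands of the receptor encoded by Csf1r. Csf1 did not pass without K146Q mouse 60 (0.48) or 62 (0.46). In the hypothalamus 0 of 12 passed, with Csf1r at 0.09 and Csf1 at -0.03.

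Of 14 matrix proteases and inhibitors, 8 rose in the thyroid, 0 fell and 6 did not pass, and the summed level of the list overlapped between the genotypes (1358 to 1932 CPM in WT and 1893 to 2181 CPM in K146Q). Timp2, 1 of the 8, passed in 2 of the 6 fits that left out 1 library. Timp1, an inhibitor of metalloproteases, was 3.6, 2.85 and 6.56 CPM in WT and 43.9, 49.4 and 43.1 CPM in K146Q thyroids (log2 3.32, SE 0.26, adjusted p = 1.3e-04). Adamts4, an aggrecanase, Adamts7, which cleaves COMP, and Adamts1 rose by log2 2.01 (SE 0.36), 1.73 (SE 0.13) and 1.27 (SE 0.14). In the pituitary 1 of 14 passed, Timp2, which fell (log2 -0.36, SE 0.08, in 2 of the 6 fits that left out 1 library), and in the hypothalamus 0 of 12, with Timp2 at -0.06 and Timp3 at -0.03.

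Of 11 mineral matrix genes, 6 did not reach the filter in the thyroid, and Mepe and Bglap had no read there. The list still summed to 419 to 601 CPM in WT and 1024 to 1098 CPM in K146Q thyroids. Most of that rise was Ank, at 248, 185 and 293 CPM in WT and 701, 746 and 710 CPM in K146Q. Ank, a transporter that exports pyrophosphate, and Mgp, an inhibitor of calcification, rose (log2 1.59, SE 0.16, and 0.71, SE 0.12), whereas Phospho1 and Alpl, phosphatases that promote mineral, fell (log2 -3.27, SE 0.40, and -2.21, SE 0.27). Phospho1 fell in the pituitary also (-0.99, SE 0.21), the 1 gene of 5 to pass there, in 2 of the 6 fits that left out 1 library. In the hypothalamus 0 of 6 passed, with Ank at 0.03 and Phospho1 at 0.20. Over the 5 lists, 36 of the 45 genes called in the thyroid and 5 of the 12 called in the pituitary passed in all 6 fits that left out 1 library. Without K146Q mouse 60 or 62 the pituitary count was 5.

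**Figure D4:**
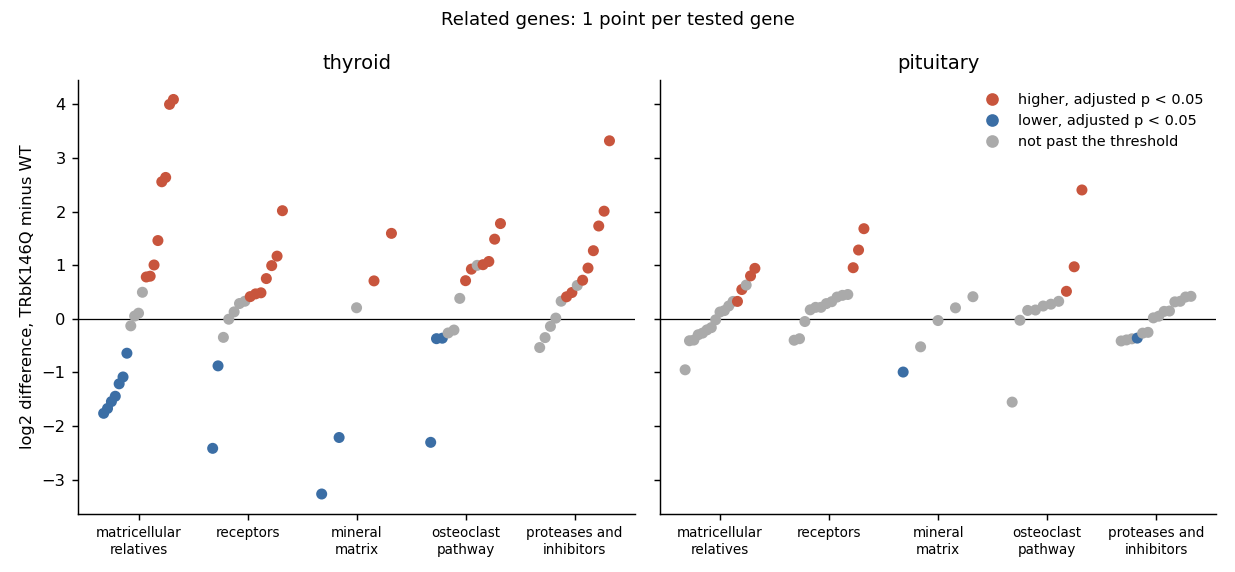
Log2 difference of K146Q minus WT for every tested gene of the 5 related lists in thyroid and pituitary, 1 point per gene, red for higher and blue for lower at an adjusted p under 0.05 and grey for the others. The matricellular relatives in the thyroid spread from -1.76 for Wisp1 to 4.09 for Tgfbi, and the pituitary holds 12 coloured points against 45 in the thyroid.

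Markers of connective tissue and of macrophages also differed between the thyroids. Their counts stand beside 19.7% higher and 18.1% lower of all thyroid genes, and 6.36% and 3.50% of all pituitary genes. Tendon markers summed to 173 to 199 CPM in WT and 316 to 340.3 CPM in K146Q thyroids, with 4 of 6 tested higher and Tnmd, the tendon cell membrane protein, lower. The most marked was Fmod (fibromodulin), at 0.568, 1.65 and 1.98 CPM in WT and 41, 66.1 and 55 CPM in K146Q thyroids. Cartilage markers summed to 268 to 339 and 420.3 to 511 CPM, with 5 of 12 higher and 2 lower, and Sox9, a transcription factor found in some epithelia as well as in cartilage, made up most of the sum, at 275, 211 and 253 CPM in WT and 356, 413 and 451 CPM in K146Q thyroids. Without Sox9, a choice made after the data were seen, the sums overlapped, at 56.7 to 64.1 CPM in WT and 60 to 77.2 CPM in K146Q. The defining cartilage collagen Col2a1 was at 0, 0.127 and 0.18 CPM in WT and 0.248, 0.47 and 0.176 CPM in K146Q thyroids, and the matrilins Matn1 and Matn3 had at most 3 reads in any of them. Fibroblast markers summed to 1248 to 1544 and 2814 to 3185 CPM (5 of 10 higher, 2 lower) and smooth muscle markers to 245 to 296 and 408 to 521 CPM (5 of 6 higher). Macrophage markers summed to 238 to 383 and 698 to 807 CPM in the thyroid (9 of 12 higher) and to 136 to 161 and 223 to 328 CPM in the pituitary (8 of 12 higher). In the pituitary the cartilage markers summed to 99.4 to 112 CPM in WT and 59.6 to 62.3 CPM in K146Q (2 of 10 lower) and the tendon markers to 74.6 to 99.3 and 55.4 to 60 CPM (1 of 6 lower). The genes that fell there were Hapln1, the link protein of aggrecan, at 24.1, 23.5 and 26 CPM in WT and 1.03, 1.07 and 2.81 CPM in K146Q (log2 -3.64, SE 0.26), Col11a1 (-0.76) and Cilp (-1.49). The fall of the tendon sum was that of Cilp, at 67, 58.2 and 43 CPM in WT and 16.8, 20.3 and 21.3 CPM in K146Q. Scx (0.38) and Mkx (0.14) had higher means with overlap. The median log2 difference of the 6 tendon markers tested was 0.01. The part of these cells in the values of Comp, Thbs2, Thbs4, Edil3, Tnfsf11 and Tnfrsf11b, and of Edil3, Acan, Mfge8 and Spp1 in the pituitary, was not tested.

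Other marker lists were lower in the K146Q thyroids. Brown and white fat markers summed to 402 to 467 CPM in WT and 55.6 to 112 CPM in K146Q (6 of 6 lower), and parathyroid and C-cell markers to 5612 to 8478 and 686 to 1878 CPM (4 of 4 lower). Of 7 follicle markers, Tshr, Pax8 and Nkx2-1 were higher and Foxe1 lower, and Tg, at 349907, 357296 and 293439 CPM in WT and 83869, 96214 and 130421 CPM in K146Q, lay too far above the other genes for the fit to give it a usable error (SE 5.14). Skeletal muscle (0 of 9), airway (0 of 5) and pituitary markers (0 of 7) did not pass in the thyroid, and 4 of 6 neural markers were lower. In the same tissue 2 of 5 endothelial, 1 of 4 lymphocyte and 1 of 3 osteoblast markers were higher, and 1 osteoblast marker was lower. Over all thyroid genes 19.7% were higher and 18.1% lower, and nothing is read from lists with single calls. How much of the neighbouring tissue each dissection carried, and its part in the members' values, was not tested.

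**Figure D5:**
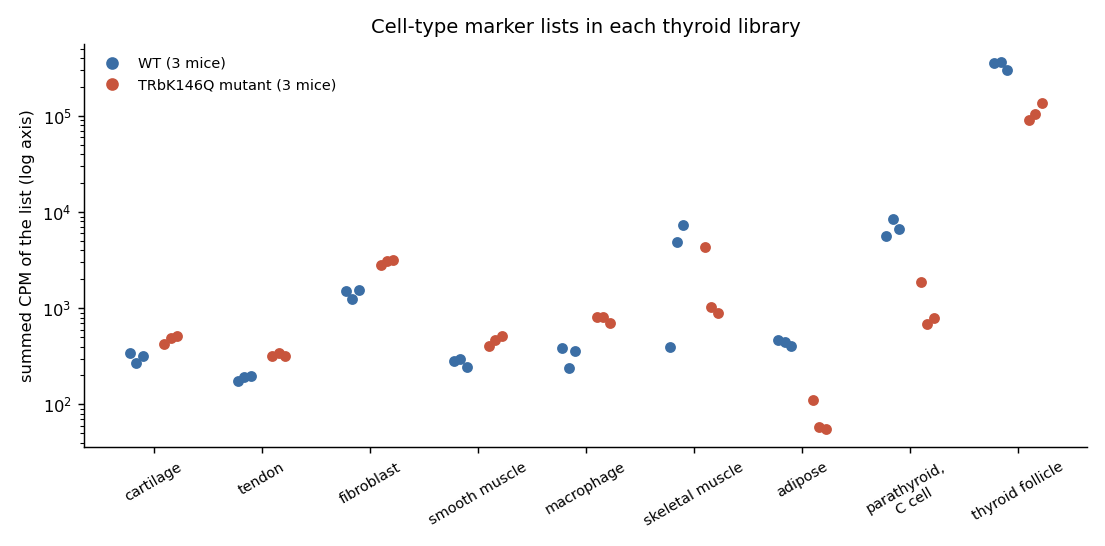
Summed CPM (log axis) of 9 marker lists in each thyroid library, 3 WT (blue) and 3 K146Q (red). Cartilage (mostly Sox9), tendon, fibroblast, smooth muscle and macrophage sums lie higher in K146Q. Adipose, parathyroid and follicle (mostly Tg) sums lie lower, though 3 of the 7 follicle markers were higher and 1 lower. Skeletal muscle overlaps, from 399 to 7402 CPM.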

How the data were processed

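Per the submitters' processing notes, bcl2fastq 2.17, Bowtie2 2.1.0 and RSEM 1.2.15 were used with mm10; the annotation and the normalization software are not given in the sources used here. The authors deposited for each gene and library a normalized signal, in CPM of the library total times a normalization factor. Divided by the value of 1 read in each library, 100% of the values were whole reads (within 0.05 reads). The normalization factors recovered from the 18 columns multiply to 1, from which a joint normalization is inferred. Columns with the results of the authors' own comparison (log2 fold change, mean level, likelihood ratio, p-value, FDR) were not used.

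The main test was limma 3.58.1 (R 4.3.3) with a mean-variance trend on log2(value + 0.5), fitted to 1 tissue at a time. A gene entered if 3 or more of the tissue's 6 libraries reached 0.5 CPM, and p-values were adjusted by Benjamini-Hochberg, with 0.05 as the limit. WT tissues were compared in 1 fit of the 18 libraries over the 24027 symbols shared by the tables, leaving out 27 symbols that read as dates. Alternatives were a pseudocount of 0.1 or 1, a stricter filter (1 CPM in all libraries) or none, a fit without trend, other scalings, edgeR 4.0.16 and DESeq2 1.42.0 on the recovered reads, and leaving out each library. The scripts were tested on simulated data in which 200 genes were given a log2 change of 2. The 3 genotype fits recovered 92% to 98.5% of these genes. Of the genes they called, 6.47% to 7.94% were false, somewhat above the limit of 0.05. For WT pituitary against thyroid the values were 100% and 2.44%. The members, the 5 related lists and the 15 marker lists were chosen with earlier results of these data known. Named are all 10 members, up to 4 called genes of the largest log2 difference per related list and tissue (where none passed, the 2 most abundant) and the 3 nearest genes by likeness. Outside this rule Wisp1, Smoc1, Smoc2, Sparcl1, Spock2, Spock3 and Tnr in the thyroid were named after their values were seen. So were Itga8, Nfatc1, Traf6, Ctsk, Acp5, Mmp9, Csf1r, Tnfsf10 and Timp2 in the thyroid and the single marker genes. Mouse numbers come from the sample titles and were taken to mark the same animals across tissues, which no label states for each library. Deviations from group means correlated at -0.03 to 0.17 between tissues of 1 mouse, and the genotypes share no number, so within a tissue the libraries are unpaired. The limma p-values set a difference against the spread between libraries of a group, which is drawn toward a trend over all genes. In the WT comparisons this spread is pooled over all groups, K146Q included. The libraries of 1 mouse are there taken as independent, except with the replicate block. Intervals and the floor of 3 reads cover counting error only.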

Additional observations from a re-analysis of the deposited data

Results flagged for a closer look

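For the genes here every K146Q library lay above every WT library in 1 tissue and below every WT library in another. The difference between tissues was not tested for any of them. Edil3 had a log2 difference, K146Q minus WT, of 4.22 in the thyroid and -1.07 in the pituitary, a gap of 5.29. Against its hypothalamus value of 0.12 the pituitary value stood lower by a gap of -1.19. Of the related genes, Tnr, a neural tenascin, was at -1.54 in the thyroid and 0.80 in the pituitary (gap -2.34). The testicans Spock2 and Spock3 were at -0.64 and -1.21 in the thyroid and at 0.32 and 0.94 in the pituitary (gaps -0.966 and -2.15). Timp2, a metalloprotease inhibitor, was at 0.49 in the thyroid and -0.36 in the pituitary (gap 0.85), and passed in 2 of the 6 fits that left out 1 library in each tissue. In the thyroid Tnr and Spock3 missed the filter without any 1 WT library.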

How the results depend on the processing

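With at least 1 CPM in every library the members past the threshold numbered 3 in the thyroid, 3 for WT pituitary against thyroid, 4 for WT hypothalamus against thyroid and 4 for WT pituitary against hypothalamus, since fewer members were tested. Without the trend 2 members passed in the pituitary, Edil3 and Acan. DESeq2 called 9 genes in the hypothalamus and, in the thyroid, Spp1 besides the 6 members. Leaving out each library gave 3602 to 5106 genes in the thyroid, 625 to 1345 in the pituitary and 0 to 6 in the hypothalamus. It gave 4 to 6 members in the thyroid and 1 to 2 in the pituitary, and 39 to 45, 5 to 12 and 0 to 1 related genes in thyroid, pituitary and hypothalamus. In the WT tissues it gave 6 to 7, 9 and 6 to 7 members in the 3 comparisons. With mouse number as a replicate block the WT comparisons gave 7, 9 and 7 members, and the block changed no call of a member. The size of the low members' differences in the thyroid depended on the pseudocount: from 1 down to 0.1, Comp ran from 4.88 to 5.71, Edil3 from 3.90 to 4.55, Tnfsf11 from 3.42 to 4.72 and Tnfrsf11b from 1.55 to 3.76 on the log2 scale. For WT Mfge8, pituitary minus thyroid, the difference was -0.20 without the 10 highest genes in the totals, -0.24 by quantile normalization and -0.29 without mouse 1, and no longer passed. WT Tnfsf11, pituitary minus hypothalamus, was 0.49 without mouse 43 and no longer passed. Over the single genes, the members' genotype differences were judged by size alone, and the called related genes and the WT comparisons by the threshold. Of the values under the alternatives, 1596 kept their side of the threshold or moved by less than the spread between replicates. A further 63 missed the threshold, 4 came to pass it, 21 moved by more than that spread and none changed sign past the threshold. The 63 hold no genotype call of a member, so the lost calls of members given above are not among them. Fits in which a gene was not tested were not counted. Depth limits Acan, Tnfrsf11b and Tnfsf11, which had 10 or fewer reads in every WT thyroid. The causes of these changes were not tested.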
